A study of Mus musculus with 18 samples.

Results

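The difference between Runx3 knockout (KO) and wild-type (WT) natural killer (NK) cells that was shared along NK maturation was measured on all 18 arrays of the series. KO minus WT was taken within each of 3 sorted subsets and averaged over the subsets with equal weight. A gene was called shared when this average passed an adjusted p of 0.05, its 3 subset differences had the same sign, and the smallest of them was at least 0.5 times the largest in size. Of 19938 genes measured, each by 1 probe set, 699 met this definition, with 244 higher and 455 lower in KO cells, a balance of directions that depends on the scaling of the arrays. The genes that also passed a test over 1 value for each sample included the lectin receptor gene Clec4e, the tetraspanin gene Cd81, the phosphatase gene Dusp1 and the inhibitory receptor gene Tigit among those that rose. Clip4, the potassium channel gene Kcnc1, the phosphatase gene Ptpn3 and the receptor-like kinase gene Styk1 were among those that fell.

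The KO arrays held CD27, DP and CD11b NK cells of Runx3 -/- mice, and the WT arrays held the same subsets of Runx3 +/+ mice, with 3 arrays in each of the 6 groups. All mice, WT included, were 6-week-old animals of ICR, an outbred stock, and the sex label allowed male or female. All of them had received repeated injections of IL15/Ra complexes, which carry interleukin-15, so no unstimulated cells enter the comparison. Splenic NK cells were enriched and NKp46+ cells were sorted into CD27+CD11b- (CD27), CD27+CD11b+ (DP) and CD27-CD11b+ (CD11b) cells. The labels do not state which part of Runx3 is deleted, or whether arrays come from single or pooled animals. The 3 arrays that carry the same number within a genotype, 1 from each subset, are called a sample here, which gives 3 KO and 3 WT samples.

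Runx3 belongs to the Runt family of transcription factors, which bind DNA together with the partner subunit Cbfb and can activate or repress a gene depending on the site. In T cells it is known for silencing Cd4 in the CD8 lineage, and in innate lymphocytes it is known to shape the response to interleukin-15. Mouse NK cells mature from CD27 single-positive through double-positive to CD11b single-positive cells, and interleukin-15 sustains their survival and drives their proliferation.

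Values are log2 expression after robust multi-array averaging, and ran from 3.91 to 14.96. The defining NK gene Ncr1, which encodes NKp46, lay between 13.45 and 13.77 on the KO arrays, against 13.63 to 13.81 on the WT arrays. The sorted subsets carried their own markers: Cd27 averaged 11.63, 11.52 and 9.48 in CD27, DP and CD11b cells of KO mice, against 11.80, 11.60 and 9.87 in those of WT mice, and Itgam, which encodes CD11b, averaged 9.50, 11.80 and 12.16 in KO mice, against 10.14, 12.37 and 12.60 in WT mice. Neither gene, nor Ncr1, Tbx21 or Eomes, passed in the average. Arrays of the same number deviated together within a genotype, with correlations of 0.21 to 0.64 among KO arrays and -0.0094 to 0.46 among WT arrays, so the average was fitted with the sample as a random block. Xist, which is expressed from the inactive X chromosome of females, was between 5.13 and 5.69 on the arrays of KO samples 1 and 2 and of WT sample 1. It was at least 12.48 on those of KO sample 3 and WT samples 2 and 3.

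KO sample 3 stood apart from the other samples. Its 3 arrays had a mean cell cycle gene level of 9.78 to 10.13, against 7.13 to 7.88 on the other KO arrays and 6.80 to 7.0 on the WT arrays, over a list of 48 genes. It also carried transcripts of other cell types: the mean level of 16 neutrophil marker genes was 9.28 on its CD11b array, against at most 5.17 on the arrays of the other KO samples and 5.06 to 5.2 on the WT arrays. Dendritic cell and MHC class II markers reached 8.82 on that array, against at most 6.46 on the arrays of the other KO samples and 6.21 on the WT arrays. Results are therefore given with and without this sample where it moves them. KO sample 3 was also the only KO sample with high Xist. Without it, KO samples low in Xist are set against a WT group in which samples 2 and 3 are high. What this imbalance adds to the values without KO sample 3 was not tested. On bulk arrays a change in the share of some cells and a change in transcript per cell cannot be told apart.

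**Figure D1:**
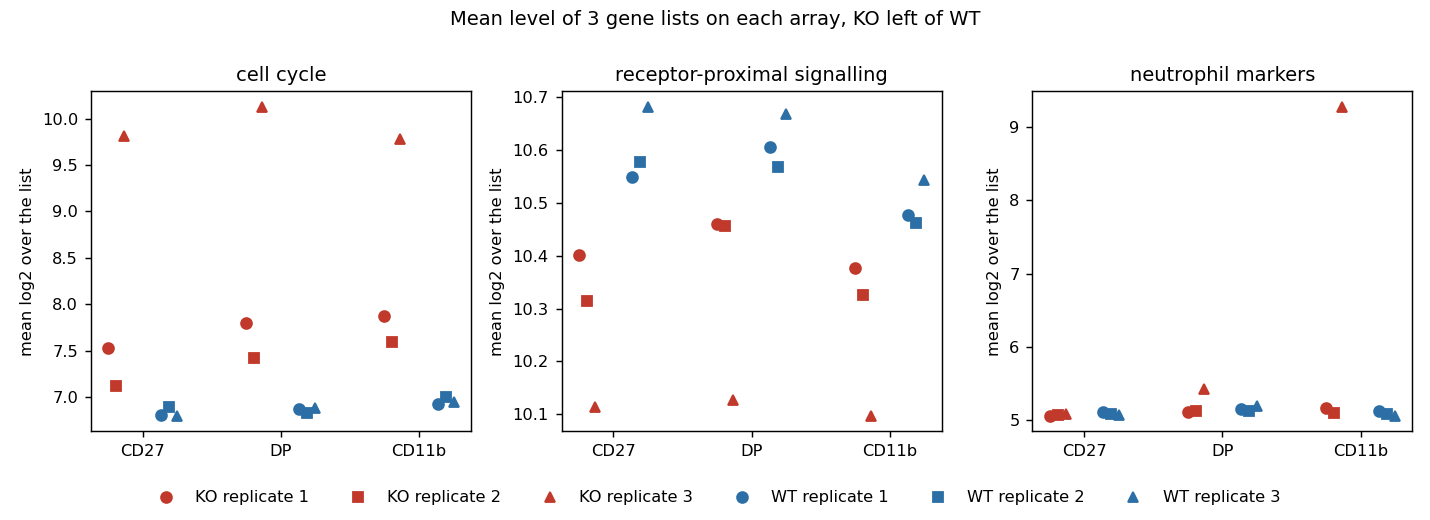
Mean log2 expression over the genes of 3 lists on each of the 18 arrays, with KO arrays left of WT arrays in each subset and the marker shape giving the replicate number. KO replicate 3 lies highest for the cell cycle list in each subset (9.78 to 10.13) and, in CD11b cells, for the neutrophil list (9.28). For the receptor-proximal signalling list the KO arrays (10.10 to 10.46) lie below the WT arrays (10.46 to 10.68) in each subset.

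The targeted gene itself was lower in KO cells on average. Runx3 had sample means of 11.09, 11.09 and 10.86 in KO mice, against 11.47, 11.60 and 11.62 in WT mice, each the mean of 3 arrays. KO and WT arrays did not overlap in any subset, and the average fell by 1.46-fold (95% CI 1.31 to 1.62, adjusted p = 0.000491), which leaves a high signal in KO cells. Since the deleted part is not given in the sources used here, it is not known whether the probes lie within it. Runx1, the other Runt factor of NK cells, was 1.26-fold higher in KO cells (adjusted p = 0.0270), but not without WT sample 2 (adjusted p = 0.193). Cbfb averaged 10.37 ± 0.11 in KO mice and 10.36 ± 0.06 in WT mice (SD, n = 3 samples each), with a 95% interval of the fold from 0.926 to 1.10.

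Over all 35399 probe sets, 1587 (4.48%) passed in the average, of which 630 (1.78%) were higher and 957 (2.7%) lower in KO cells. Falls did not outnumber rises under every scaling: after cyclic loess normalisation, which moved the median difference of all probe sets to 0.0006 from -0.0158, 854 were higher and 661 lower. The split was 779 higher and 843 lower without KO sample 3. Of the 1587, 1573 had the same sign in the 3 subsets, against 43.0% of all probe sets, and 1039 also met the limit on similar size, against 12.7% of all probe sets. For 702 of the shared probe sets KO and WT arrays did not overlap in any subset, a separation found for 2.88% of all probe sets. Passing in the average favours probe sets whose subset differences agree and whose genotypes lie apart. These counts therefore follow partly from the call and are given as a description. The test of a difference in effect between subsets, a moderated F test of the interaction, passed for 21 probe sets (0.0593%), none of them shared. With 3 samples per genotype a miss in that test does not show that effects were equal. That no shared probe set passed it follows largely from the limit on similar size, which leaves out effects that differ much between subsets.

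The number passing depended on single samples. It was 489 without WT sample 2, 562 without WT sample 3, 683 without KO sample 1 and 1010 without WT sample 1, and 1622 without KO sample 3. Of the 699 shared genes 204 passed with any of the 6 samples left out, 69 higher and 135 lower, and none changed sign. Leaving out KO sample 3 kept 532 of the 699 past the threshold. A fit that used 1 value for each sample, its mean over the 3 subsets, passed 71 probe sets (0.201%), 27 higher (0.0763%) and 44 lower (0.124%), or 51 genes (0.256%), of which 36 were shared genes. These 36 genes, 14 higher and 22 lower in KO cells, are described first, and were singled out after their values were seen.

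**Figure D2:**
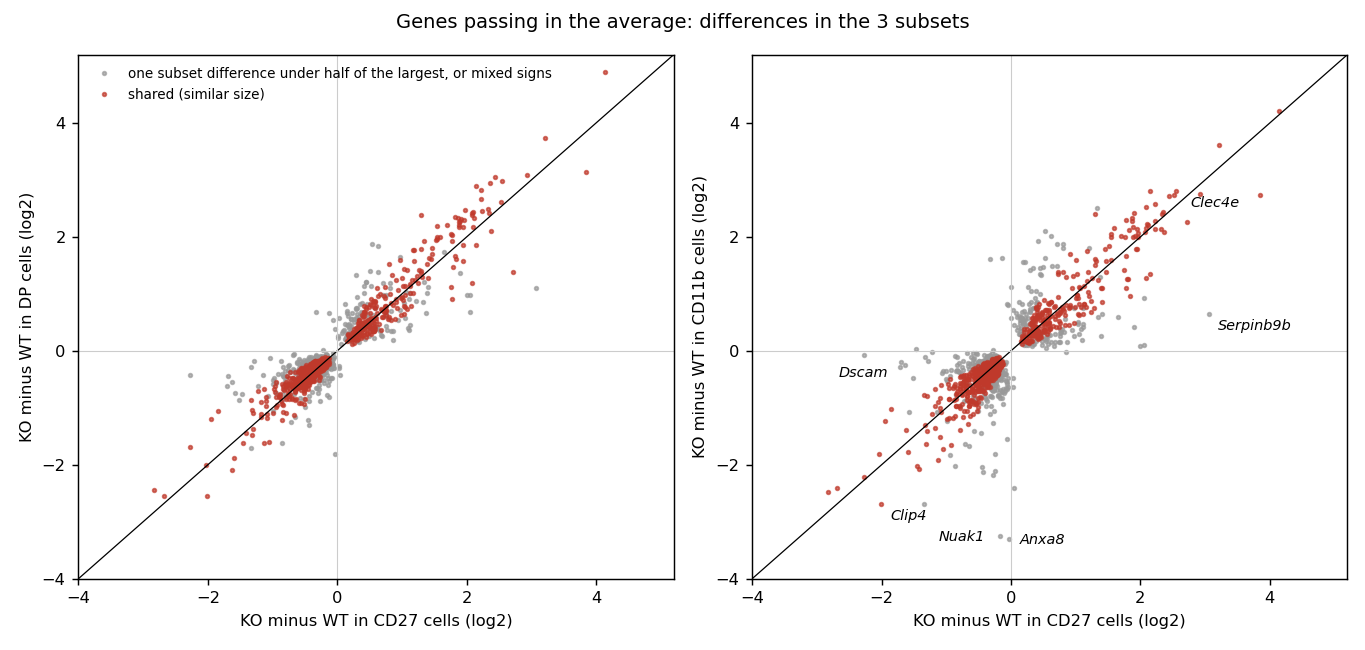
KO minus WT (log2) in DP cells (left) and in CD11b cells (right) against KO minus WT in CD27 cells, with 1 point for each gene that passed in the average. Shared genes (red) lie along the diagonal by definition, and genes that miss the limit on similar size (grey) include Nuak1 (-0.16 in CD27 cells and -3.25 in CD11b cells) and Dscam (-2.27 and -0.08).

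Similar size in the 3 subsets is part of the definition of a shared gene. The median size of KO minus WT was 0.45 in CD27, 0.43 in DP and 0.46 in CD11b cells on the log2 scale, and the largest of the 3 differences fell in CD27 cells for 248 genes, in DP cells for 184 and in CD11b cells for 267. The median fold of the average was 1.36, so most shared differences were small. On their own the subsets passed 409 (1.16%), 174 (0.492%) and 574 (1.62%) probe sets in CD27, DP and CD11b cells, and 69 of the 699 shared genes passed in each subset alone while 440 passed in no subset alone. At least 2-fold differences were seen for 83 genes higher and 29 lower in KO cells, of which 68 and 27 were still at least 2-fold without KO sample 3.

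Among surface receptors, Clec4e had nearly equal sample means of 8.68, 8.70 and 8.74 in KO mice, against 5.88, 5.87 and 6.04 in WT mice. Clec4e encodes Mincle, a C-type lectin that recognises mycobacterial glycolipids and is best known from myeloid cells. In KO cells it measured 8.73, 8.52 and 8.24 in CD27, 9.17, 8.99 and 8.84 in DP and 8.15, 8.59 and 9.14 in CD11b cells. In WT cells it measured 5.68, 5.94 and 6.22 in CD27, 6.16, 5.96 and 5.94 in DP and 5.79, 5.71 and 5.95 in CD11b cells. The lowest KO array, at 8.15, lay above the highest WT array, at 6.22. The average rose by 6.85-fold (95% CI 5.44 to 8.62, adjusted p = 5.12e-07), with an adjusted p of 0.000304 over sample means. Macrophage and monocyte markers averaged at most 5.45 on the arrays of KO samples 1 and 2, against 5.22 to 5.31 on the WT arrays, and the average difference of Clec4e without KO sample 3 was 2.76 on the log2 scale, against 2.78 with it.

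Cd81, a tetraspanin that organises partner proteins in the membrane, was the shared gene with the largest rise among those that passed over sample means. It measured 9.55, 9.10 and 10.22 in CD27, 8.94, 8.52 and 9.61 in DP and 8.37, 8.24 and 9.36 in CD11b cells of KO mice. All 9 WT arrays lay between 5.68 and 6.07. KO sample 3 was highest in each subset, and without it the average difference was 2.93 in place of 3.24 on the log2 scale. The average rose by 9.45-fold (95% CI 7.19 to 12.4, adjusted p = 5.12e-07; 0.0313 over sample means).

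Tigit, an inhibitory receptor for nectin-like ligands, had sample means of 11.15, 11.20 and 11.09 in KO mice, against 9.81, 9.86 and 9.60 in WT mice. The rise was 2.63-fold (95% CI 2.25 to 3.07, adjusted p = 6.47e-06), and the subset differences were 1.31, 1.30 and 1.57 in CD27, DP and CD11b cells. Cd226, the activating receptor that shares ligands with Tigit, also passed in the average (2.02-fold, adjusted p = 0.000101) but was not shared, since KO minus WT was 0.29 in CD27 cells, against 1.32 in DP and 1.42 in CD11b cells. The related receptors fell: Crtam, a receptor for Cadm1, by 2.76-fold (adjusted p = 0.000956) and Cd96 by 0.76 on the log2 scale (adjusted p = 0.000284). Crtam was at 8.23, 8.73 and 7.70 in KO samples and at 9.63, 9.82 and 9.60 in WT samples. In all, 3 of 30 measured NK surface receptor genes were higher and 2 lower in KO cells, with a median of -0.07, beside 1.92% higher and 3.54% lower among all genes and a median of -0.0096. The third that rose was Lilrb4a, an inhibitory immunoglobulin-like receptor (2.44-fold, adjusted p = 0.00838), which did not pass without WT sample 2 (adjusted p = 0.0863).

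**Figure D3:**
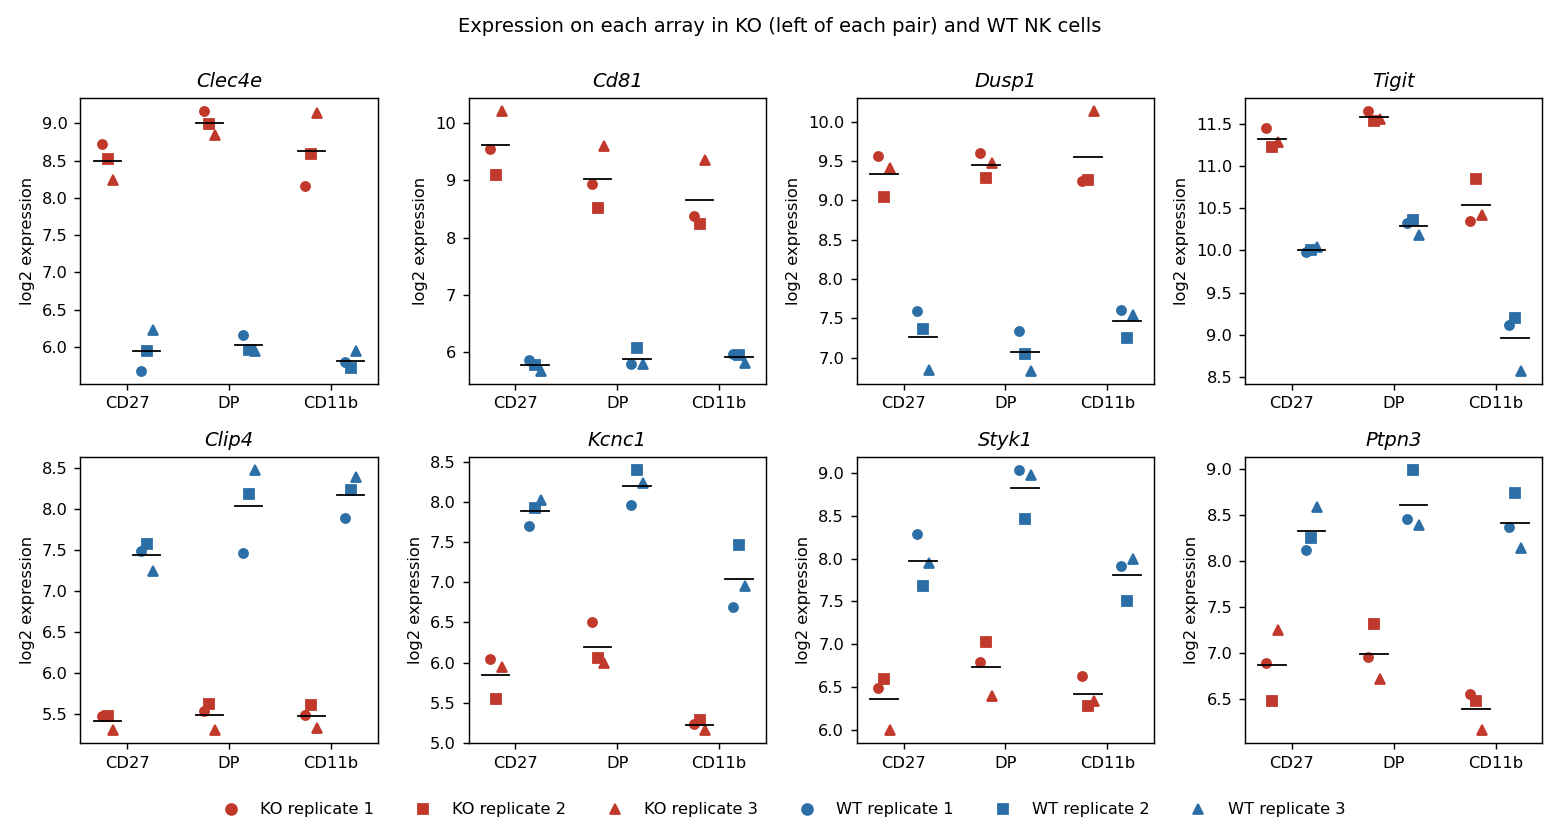
Log2 expression of 8 shared genes on each array, with KO arrays left of WT arrays in each subset, horizontal bars at group means and the marker shape giving the replicate number. KO and WT arrays do not overlap in any subset for any of the 8 genes: the upper row is higher and the lower row lower in KO cells.

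Gpr25 and 3 other cell surface genes with large falls or rises passed over sample means. Gpr25, a G-protein-coupled receptor of lymphocytes, was at 6.55, 6.75 and 7.02 in KO samples, against 8.51, 9.21 and 8.77 in WT samples. It fell by 4.16-fold (95% CI 2.92 to 5.92, adjusted p = 0.000198; 0.0445 over sample means). Ramp1, a partner chain of the receptor for calcitonin gene-related peptide, rose by 2.11-fold (adjusted p = 4.74e-05). Aqp9, a channel for water and glycerol, rose by 2.45-fold (adjusted p = 0.000246). Ptger3, a receptor for prostaglandin E2, rose by 1.64-fold from a level near the low end of the scale (5.80 ± 0.10 in KO mice and 5.09 ± 0.03 in WT mice, SD, n = 3 samples each; adjusted p = 1.37e-05).

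The shared genes include ion channels in both directions. Kcnc1, a voltage-gated potassium channel of the Kv3 family, measured 6.04, 5.55 and 5.95 in CD27, 6.51, 6.06 and 6.00 in DP and 5.23, 5.28 and 5.16 in CD11b cells of KO mice. In WT mice it measured 7.70, 7.92 and 8.02 in CD27, 7.96, 8.39 and 8.23 in DP and 6.69, 7.47 and 6.95 in CD11b cells. KO and WT arrays were separate in each subset, and the average fell by 3.87-fold (95% CI 3.21 to 4.66, adjusted p = 2.23e-06; 0.0195 over sample means). Kcnma1, the calcium-activated BK potassium channel, had the largest shared rise of all, 21.3-fold, but its KO samples were far apart. Its sample means were 11.97, 8.89 and 6.82 in KO mice, against 4.81, 4.78 and 4.86 in WT mice, so that every KO sample was above every WT sample while the size of the rise ranged widely (95% CI 6.45 to 70.2, adjusted p = 0.00634). The average difference was 5.61 on the log2 scale without KO sample 3, against 4.41 with it, and 1 of its 2 probe sets passed. Kcnma1 did not pass over sample means (adjusted p = 0.259) or without WT sample 2 (adjusted p = 0.0619). Kcnj8, a potassium channel of the ATP-sensitive kind, had sample means of 10.14, 9.76 and 9.25 in KO mice, against 8.93, 7.10 and 5.95 in WT mice. Here the WT samples were the ones that spread, and the 5.24-fold rise (adjusted p = 0.0159) did not pass without WT sample 2 (adjusted p = 0.109).

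Upstream sequences are shown for a pair of genes that rose and a pair that fell, since the Runt factors recognise a known short motif, TGTGGT, or ACCACA when read from the other strand. Each sequence is the 250 bases before the annotated start of the gene, 5' to 3' on the strand of the gene, from RefSeq on build GRCm38.p6, and capitals mark the motif. They come from chr7:143052500-143052749 (plus strand) for Cd81, chr6:123289872-123290121 (minus strand) for Clec4e, chr1:136260927-136261176 (minus strand) for Gpr25 and chr7:46396218-46396467 (plus strand) for Kcnc1.
Cd81: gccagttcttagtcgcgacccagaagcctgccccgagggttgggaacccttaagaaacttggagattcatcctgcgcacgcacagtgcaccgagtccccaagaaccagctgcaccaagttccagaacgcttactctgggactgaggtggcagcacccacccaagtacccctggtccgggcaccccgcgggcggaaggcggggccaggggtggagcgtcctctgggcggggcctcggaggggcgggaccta
Clec4e: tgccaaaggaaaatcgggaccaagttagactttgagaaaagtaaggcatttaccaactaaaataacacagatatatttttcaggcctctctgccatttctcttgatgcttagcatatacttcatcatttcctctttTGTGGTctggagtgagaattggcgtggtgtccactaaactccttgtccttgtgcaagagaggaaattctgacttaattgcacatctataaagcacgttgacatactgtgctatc
Gpr25: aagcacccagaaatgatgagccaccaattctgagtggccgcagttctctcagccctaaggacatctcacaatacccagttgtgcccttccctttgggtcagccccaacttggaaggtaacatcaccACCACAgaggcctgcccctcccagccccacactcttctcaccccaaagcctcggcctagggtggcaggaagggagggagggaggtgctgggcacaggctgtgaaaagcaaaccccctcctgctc
Kcnc1: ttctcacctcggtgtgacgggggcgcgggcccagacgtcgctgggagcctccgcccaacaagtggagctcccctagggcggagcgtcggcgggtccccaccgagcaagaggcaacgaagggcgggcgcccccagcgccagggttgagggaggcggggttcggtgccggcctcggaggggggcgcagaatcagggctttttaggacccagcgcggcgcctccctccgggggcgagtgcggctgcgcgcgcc
The Clec4e window holds 1 match, which begins 114 bases before the start, and the Gpr25 window holds 1 match, 124 bases before it, while the windows of Cd81 and Kcnc1 hold none. Windows of 300 bases, from 250 before to 50 after the start, were also searched on either strand. A gene with several annotated starts counted when any of its windows held a match. A match was present for 39 of 196 genes with a sequence that were shared and higher (19.9%) and for 59 of 361 that were shared and lower (16.3%), beside 2567 of 15614 measured genes (16.4%). Among the 36 genes that passed over sample means it was 8 of 29 (27.6%).

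Of 23 measured genes for the first steps of signalling below receptors, 5 fell and none rose in KO cells, beside 3.54% lower and 1.92% higher among all genes, with a median of -0.12 on the log2 scale, and the mean level of the list was 10.10 to 10.46 on the KO arrays, against 10.46 to 10.68 on the WT arrays. Without KO sample 3, 2 were higher and 2 lower, and the median was -0.02, so the count rests partly on that sample. Ptpn3, a tyrosine phosphatase with FERM and PDZ domains, measured 6.88, 6.48 and 7.25 in CD27, 6.95, 7.31 and 6.71 in DP and 6.55, 6.47 and 6.16 in CD11b cells of KO mice, against 8.12 to 8.98 on the WT arrays. All 12 probe sets of Ptpn3 passed and fell, the highest-expressed by 3.24-fold (95% CI 2.53 to 4.15, adjusted p = 5.32e-05; 0.0139 over sample means). Styk1, a receptor-like kinase, fell by 3.25-fold (95% CI 2.65 to 3.99, adjusted p = 1.30e-05; 0.0487 over sample means), with sample means of 6.63, 6.63 and 6.24 in KO mice, against 8.41, 7.89 and 8.31 in WT mice. Ptpn3 and Styk1 each fell at least 2-fold without KO sample 3 too, with differences of -1.67 and -1.57 on the log2 scale. The other 3 did not pass over sample means: Sh2d1b2, an adaptor of SLAM receptors, was 2.48-fold lower (adjusted p = 0.0309), Ptpn6, the phosphatase SHP-1, 1.45-fold lower (adjusted p = 0.0294), and Vav1 lower by 0.20 on the log2 scale without being shared (adjusted p = 0.0435). Without WT sample 2, Sh2d1b2 and Ptpn6 did not pass (adjusted p = 0.151 and 0.198).

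Kinase pathway genes among the 36 moved in both directions. Dusp1, a dual-specificity phosphatase that inactivates MAP kinases, had sample means of 9.47, 9.20 and 9.68 in KO mice, against 7.51, 7.22 and 7.07 in WT mice. It rose by 4.54-fold (95% CI 3.57 to 5.78, adjusted p = 6.47e-06), with subset differences of 2.08, 2.38 and 2.09. Ksr1, a scaffold of the Ras to MAP kinase cascade, fell by 2.05-fold (adjusted p = 8.90e-05), and Map3k8, the MAP kinase kinase kinase Tpl2, by 1.39-fold (adjusted p = 0.00159). Pik3cb, a catalytic subunit of phosphoinositide 3-kinase, was at 10.05, 10.24 and 9.93 in KO samples, against 11.13, 11.01 and 10.98 in WT samples, and fell by 1.95-fold (95% CI 1.75 to 2.17, adjusted p = 6.47e-06). Cdk18, a kinase of the cyclin-dependent family, rose by 2.83-fold (adjusted p = 6.47e-06), with KO sample means of 7.93, 7.61 and 7.42, against 6.12, 6.16 and 6.17 in WT mice. The list of immediate early genes and MAP kinase phosphatases had 2 of 26 higher and 3 lower, beside 1.92% higher and 3.54% lower among all genes. Besides Dusp1 the passing members were Dusp2, which was not shared, and the lower Jun, Fosl2 and Ier3. Jun fell by 1.88-fold (adjusted p = 0.0185, and 0.108 without WT sample 3), and Jun and Fosl2 encode subunits of the AP-1 factor.

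Clip4, a member of a family of microtubule-binding linker proteins, gave the largest fall of those that passed over sample means. On the KO arrays it lay between 5.31 and 5.63, against 7.24 to 8.47 on the WT arrays. The fall was 5.32-fold (95% CI 4.34 to 6.51, adjusted p = 5.12e-07; 0.0139 over sample means), with differences of -2.01, -2.54 and -2.68 in CD27, DP and CD11b cells. C1ql3, a secreted C1q-related protein, fell by 2.75-fold (adjusted p = 0.000217), and Fgf13, an intracellular member of the fibroblast growth factor family, by 2.56-fold (adjusted p = 4.48e-05). The fall of Fgf13 was nearly the same size in each subset, at -1.30, -1.37 and -1.41. Other genes of this set that fell were Tmem42 by 2.26-fold, Zc2hc1a by 2.13-fold, the ubiquitin ligase gene Nedd4l by 2.02-fold, the Numb relative Numbl by 1.80-fold and the zinc transporter gene Slc39a6 by 1.61-fold. The falls of Arhgap21, Ern1, Traf4, Zdhhc3, Agtrap and Abcd3 lay between 1.36-fold and 1.53-fold. The remaining gene of the 22 is a microRNA locus whose probe set may report its host transcript, and no value is given for it.

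On the rising side the same set held Slfn1, a Schlafen family member named for its effect on thymocyte growth, which rose by 4.24-fold (95% CI 2.85 to 6.31, adjusted p = 0.000465). Slfn1 had sample means of 8.35, 8.68 and 8.08 in KO mice, against 6.47, 6.37 and 6.01 in WT mice. Mest, an imprinted gene, rose by 4.07-fold (adjusted p = 2.06e-05), with subset differences of 1.30, 2.38 and 2.39 that lay near the limit on similar size. Usp6nl, a regulator of the endosomal GTPase Rab5, rose by 2.40-fold (adjusted p = 5.29e-05), Nfe2, a basic leucine zipper factor of the erythroid and platelet lineages, by 1.79-fold (adjusted p = 0.000222), the red-cell enzyme gene Bpgm by 1.66-fold (adjusted p = 0.000457) and Hemk1 by 1.48-fold (adjusted p = 0.000894). Erythroid and platelet markers averaged 5.79 to 6.86 on the KO arrays, at most 5.96 without KO sample 3, against 5.79 to 6.02 on the WT arrays. Without KO sample 3, Nfe2 and Bpgm differed by 0.80 and 0.79 on the log2 scale, against 0.84 and 0.73 with it.

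**Figure D4:**
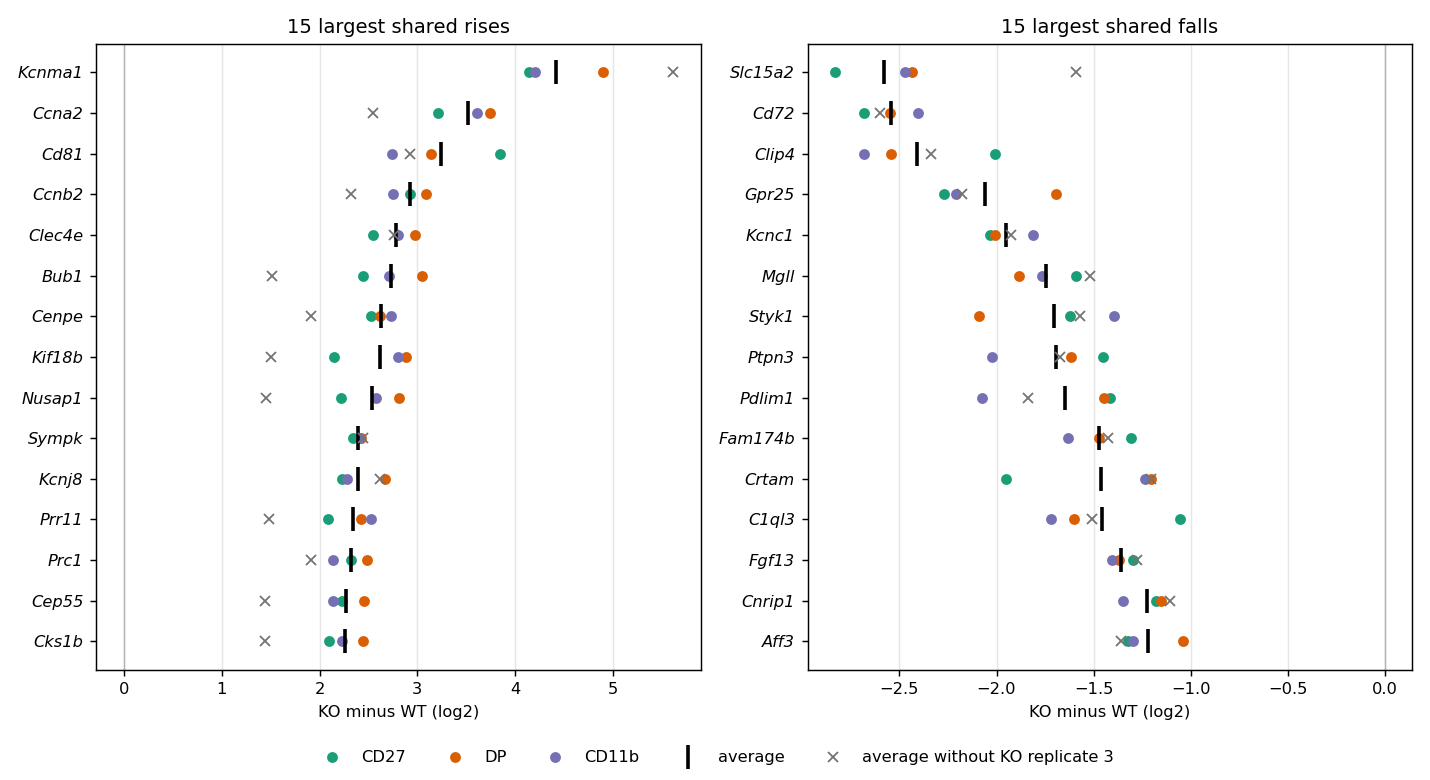
KO minus WT (log2) in CD27, DP and CD11b cells (coloured points), their average (bar) and the average without KO replicate 3 (cross) for the 15 largest shared rises and the 15 largest shared falls whose KO and WT arrays do not overlap in any subset. Leaving out KO replicate 3 moves the cell cycle genes and Slc15a2 toward 0 (Ccna2 at 2.54, against 3.52 with it), moves Kcnma1 away from 0 (5.61, against 4.41) and leaves Clec4e at 2.76, against 2.78.

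Cell cycle genes made up the largest group of high shared rises. Of 48 measured, 18 rose and none fell, beside 1.92% higher and 3.54% lower among all genes, with a median of 1.33 on the log2 scale, and all 48 differences were above 0. None of them passed over sample means. Ccna2, which encodes cyclin A2, had sample means of 9.21, 8.49 and 11.78 in KO mice, against 6.19, 6.58 and 6.15 in WT mice, an 11.5-fold rise (95% CI 5.09 to 25.9, adjusted p = 0.00202). Prc1, a protein of the mitotic midzone, had the lowest adjusted p on this list, with 8.63, 8.57 and 9.81 in KO samples, against 6.69, 6.51 and 6.87 in WT samples (4.98-fold, adjusted p = 5.32e-05; 0.0995 over sample means). KO sample 3 was the highest for each of these genes, and KO samples 1 and 2 were also above every WT sample. Without KO sample 3 the list had 30 higher and 2 lower, and its median was 0.69. Of the 83 shared genes with rises of at least 2-fold, 18 were on this list. The rises also named among the 15 largest and sharing this pattern were Ccnb2, Bub1, Cenpe, Kif18b, Nusap1, Prr11, Cep55 and Cks1b, whose averages were between 2.26 and 2.92, and between 1.44 and 2.32 without KO sample 3. Of these Ccnb2 and Cenpe passed with any 1 sample left out, while the highest adjusted p of the others was 0.0905 to 0.157, without WT sample 2 or 3.

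Some large shared differences were carried unequally by the samples of a genotype. Cd72, a lectin-like coreceptor best known from B cells, was at 5.49, 5.24 and 5.53 in KO samples, against 10.11, 7.36 and 6.43 in WT samples. The 5.83-fold fall (95% CI 2.39 to 14.2, adjusted p = 0.0271) did not pass over sample means (adjusted p = 0.357), without KO sample 3 (adjusted p = 0.0787) or without KO sample 1 (adjusted p = 0.115). B cell markers averaged 5.11 to 5.90 on the KO arrays, at most 5.27 without KO sample 3, against 5.15 to 5.64 on the WT arrays. Slc15a2, a transporter of short peptides, was at 9.55, 8.56 and 6.09 in KO samples, against 11, 10.60 and 10.34 in WT samples (5.97-fold lower, adjusted p = 0.0200), and did not pass without WT sample 2 (adjusted p = 0.123). Sympk, a scaffold of the machinery that cleaves and polyadenylates transcripts, was at 10.77, 10.89 and 10.65 in KO samples, against 9.79, 7.87 and 7.48 in WT samples (5.24-fold higher, adjusted p = 0.00291). The high WT sample of Cd72 was high in each subset (10.03, 10.24 and 10.08), as was that of Sympk (10.04, 9.91 and 9.42). Of the 3 probe sets of Sympk 2 passed. The difference of Slc15a2 was -1.59 on the log2 scale without KO sample 3, against -2.58 with it.

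The other large falls were Mgll, the lipase that breaks down monoacylglycerols (3.36-fold, adjusted p = 0.000154), Pdlim1, an adaptor of the actin cytoskeleton for which both probe sets fell (3.13-fold, adjusted p = 2.53e-05), and Fam174b (2.77-fold, adjusted p = 0.000640). Cnrip1, named for its binding to a cannabinoid receptor, fell by 2.34-fold (adjusted p = 9.29e-05) and Aff3, a nuclear protein of the AF4 family, by 2.33-fold (adjusted p = 0.000492). These 5 passed with any 1 sample left out, the highest adjusted p being 0.0126 for Aff3, but missed the threshold over sample means, with adjusted p from 0.0575 to 0.136. Pdlim1 was at 8.99, 9.10 and 9.62 in KO samples, against 11.01, 10.98 and 10.66 in WT samples, which did not overlap.

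Genes of interleukin-15 signalling and survival were 4 of 23 higher and 2 lower, with a median of 0.02, beside 1.92% higher and 3.54% lower among all genes. None of the 23 passed over sample means. The feedback inhibitor Socs2 rose by 2.99-fold (95% CI 2.14 to 4.17, adjusted p = 0.00103), with 9.56, 10.07 and 9.34 in KO samples, against 8.52, 8.15 and 7.57 in WT samples. The related inhibitor Cish rose by 1.49-fold (adjusted p = 0.000733) but was not shared. The survival gene Bcl2 rose by 1.51-fold (adjusted p = 0.0102) and the death-promoting Bcl2l11, which encodes Bim, by 1.29-fold (adjusted p = 0.0214), and neither passed without WT sample 2 (adjusted p = 0.0743 and 0.149). Jak1 and Pik3cd, kinases below the receptor, were lower by 0.26 and 0.35 on the log2 scale, and did not pass without WT sample 2 (Jak1, adjusted p = 0.145) or WT sample 3 (Pik3cd, 0.0624). Among 20 cytokine receptor genes 1 was higher, Il12rb1 (1.44-fold, adjusted p = 0.00500), and 3 were lower, Il18r1 (1.64-fold, not shared), Il27ra (1.35-fold) and Il10rb (1.30-fold). Of these 4, Il18r1 passed with any 1 sample left out, and the others did not, with adjusted p of 0.0538 for Il12rb1 without KO sample 1 and of 0.0935 and 0.103 for Il27ra and Il10rb without WT sample 3. None of the 20 cytokine receptor genes passed over sample means.

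Integrin and tetraspanin genes were 6 of 26 higher and 2 lower, with a median of 0.0028. Of the 26, Cd81 alone passed over sample means. Among all genes 1.92% were higher and 3.54% lower, which also stands beside the cytokine and chemokine counts that follow. After Cd81 the largest rises were Itgb3, the integrin beta 3 chain (2.05-fold, adjusted p = 0.00367), and Tspan32 (1.93-fold, adjusted p = 4.72e-05), and Itgb7, Cd9 and Itga4 rose by 0.65, 0.53 and 0.43 on the log2 scale. Tspan32 was at 12.18, 12.14 and 11.78 in KO samples, against 11.08, 10.97 and 11.21 in WT samples, which did not overlap. Itgax, the CD11c chain, was lower (1.86-fold, adjusted p = 0.0322, and 0.160 without WT sample 1), as was Itgb4, which was not shared. Of 19 cytokine and chemokine genes, Il10 rose (2.85-fold, adjusted p = 0.00111), Ccl9 rose without being shared, and Xcl1 fell by 1.53-fold (adjusted p = 0.0382, and 0.203 without WT sample 2). Il10 was at 7.01, 6.42 and 7.48 in KO samples, against 5.48, 5.44 and 5.46 in WT samples. Of 16 genes of chemokine receptors and trafficking, Ccr2 fell by 1.59-fold (adjusted p = 0.00390, and 0.0586 without WT sample 2) and Cxcr4 was higher without being shared. No gene of the cytokine and chemokine list or of the chemokine receptor list passed over sample means.

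The lists that define NK maturity or function are read beside 1.92% higher, 3.54% lower and 3.52% shared among all genes. Of 30 NK transcription factor genes, Tox and Prdm1 were higher and neither was shared. Of 23 cytotoxic granule genes 5 were higher and 2 lower, and 1 of these 7 was shared, Ctsc, the protease that activates granzymes, which fell by 0.40 on the log2 scale. Of 21 genes marking mature NK cells 6 were higher and 1 lower, with 1 shared, Kcnj8. Of 23 genes marking immature NK cells and ILC1-like cells 4 were higher and 2 lower, with Tmem176a, Cd7 and Xcl1 shared. Of 29 genes of the TGF-beta and Notch pathways 1 was higher, Dtx1, which was not shared, and 2 were lower, the receptor genes Tgfbr2 (1.23-fold, adjusted p = 0.0450) and Tgfbr1 (1.17-fold, adjusted p = 0.0351). Of 19 genes of glycolysis and nutrient uptake Pgk1 was higher (1.48-fold, adjusted p = 0.0345). These 3 did not pass without WT sample 2 (Tgfbr2, adjusted p = 0.255) or without WT sample 3 (Tgfbr1, 0.206, and Pgk1, 0.211). No member of the lists named so far in this paragraph passed over sample means. Without KO sample 3, 4 NK transcription factor genes were higher and none lower, 7 granule genes were higher and 3 lower, 8 mature markers were higher and 1 lower, and 6 immature markers were higher and 3 lower. Likewise 6 surface receptor genes were then higher and 2 lower, 4 cytokine and chemokine genes higher and none lower, and 2 immediate early and phosphatase genes higher and 1 lower. The glycolysis list then had none higher and 2 lower, with Pgk1 at 1.27-fold (adjusted p = 0.0592), and the TGF-beta and Notch list 1 higher and 1 lower, with Tgfbr2 no longer passing (adjusted p = 0.107).

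Marker lists of other cell types are read beside 1.92% higher and 3.54% lower among all genes. The neutrophil and the dendritic cell and MHC class II lists had medians of 0.56 and 0.50 on the log2 scale. Without KO sample 3 these medians were 0.02 and 0.08. None of 15 T cell, 16 neutrophil, 11 erythroid and platelet, or 14 mast cell and basophil markers passed. Of 15 B cell markers Bank1 was higher and Cd72 lower, of 17 macrophage and monocyte markers Cd163 was higher (1.17-fold), and Itgax was lower among 15 markers of dendritic cells and MHC class II. Without KO sample 3, Cd163 did not pass (adjusted p = 0.0660), the macrophage and monocyte list had none higher and 1 lower, the T cell list had 1 higher, Cd4 (1.30-fold, adjusted p = 0.0274), and the mast cell and basophil list had 1 lower. T cell markers differed in level by subset. They averaged 6.81 to 7.01 on the KO arrays, against 7.17 to 7.5 on the WT arrays in CD27 cells, and 6.44 to 6.56 on the KO arrays, against 6.59 to 6.68 on the WT arrays in DP cells, without overlap in either. In CD11b cells they averaged 6.20 to 6.46 on the KO arrays, against 6.14 to 6.22 on the WT arrays. Cd3e, a chain of the T cell receptor complex, was at 6.91 ± 0.66 in KO CD27 cells and at 9.91 ± 1.56 in WT CD27 cells (SD, n = 3 each), but differed by -0.19 in DP and 0.55 in CD11b cells. Mast cell and basophil markers averaged 5.59 to 6.41 on the KO arrays, at most 5.68 without KO sample 3, against 5.62 to 5.77 on the WT arrays. The part of other cells in the genes above was not tested beyond the values given without KO sample 3.

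**Figure D5:**
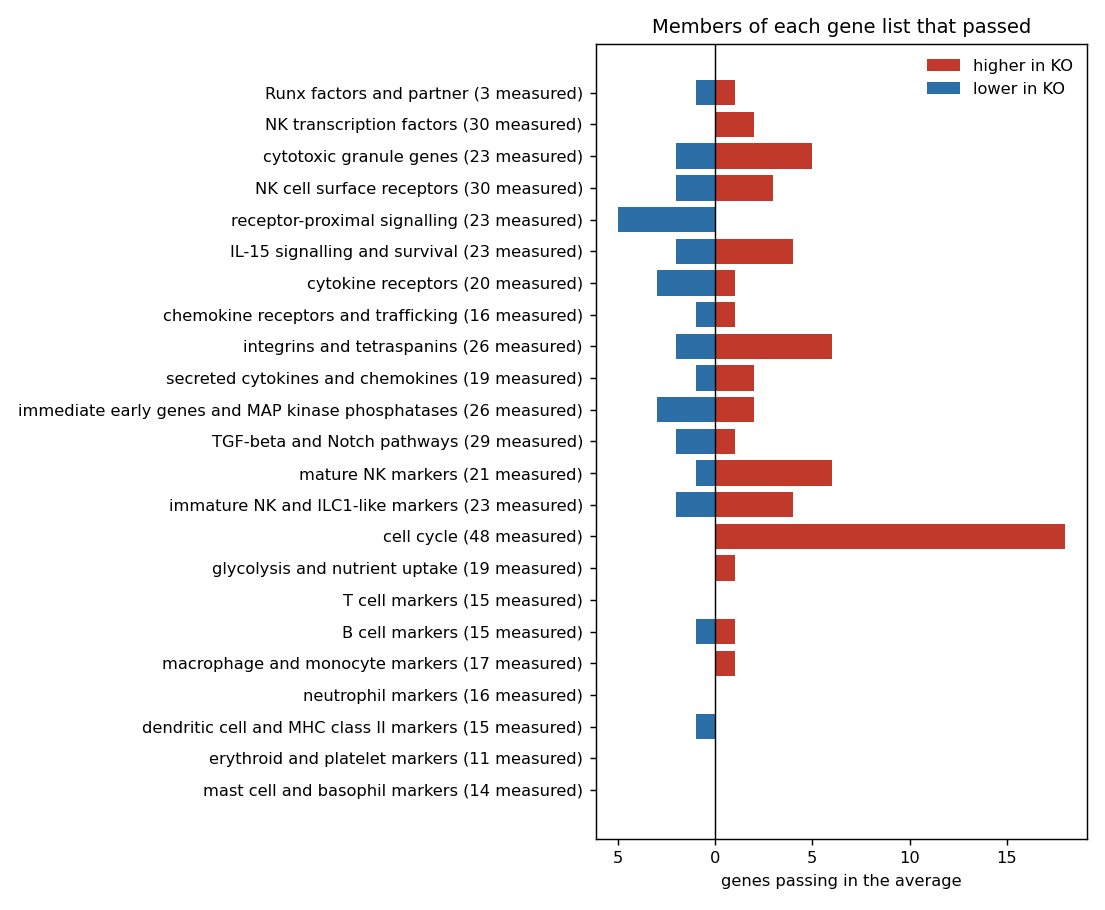
Number of genes of each list that passed in the average, with genes higher in KO cells to the right of 0 and genes lower in KO cells to the left, and the number of measured genes in brackets. The cell cycle list has the longest bar (18 of 48 higher, none lower), and the receptor-proximal signalling list is the longest with genes on the lower side alone (5 of 23). Among all genes 1.92% were higher and 3.54% lower.

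Some of the genes described above also differ along WT maturation, and since that comparison uses the same WT arrays the values are only set side by side. CD11b minus CD27 cells of WT mice was -1.05 for Tigit, which rose in KO cells, -2.24 for Crtam and -2.41 for Aff3, which fell, and -0.84 for Kcnc1, which fell. It was 0.74 for Clip4 and 0.86 for Pik3cb, which fell, and 1.03 for Mest and 1.08 for Nfe2, which rose. For Clec4e, Cd81, Dusp1, Ptpn3 and Styk1 it did not pass (adjusted p from 0.657 to 0.870). It passed for 9.88% of all genes and for 17.6% of genes above the median level.

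Near Runx3 on chromosome 4, 6 of the 100 measured genes within 50 genes on either side passed and all 6 were shared, beside 5.47% passing and 3.52% shared among all genes with a position. They were Paqr7, Ubxn11, Mtfr1l and Eloa, which fell by 1.71-fold, 1.67-fold, 1.43-fold and 1.13-fold, and Hmgn2 and Hp1bp3, which rose by 2.25-fold and 1.17-fold. Mtfr1l passed with any 1 sample left out, and the other 5 had a highest adjusted p of 0.0720 to 0.260, without WT sample 1, 2 or 3. Next to each other in the genome stood 40 pairs of shared genes, and 31 of them moved the same way. The numbers expected without any grouping in the genome were not worked out, so both counts are a description only. Gpr25 and its neighbour Camsap2 both fell, by 2.06 and 1.08 on the log2 scale. Cd81 and Tssc4 both rose, by 3.24 and 0.53, as did Prc1 and Rccd1, by 2.32 and 0.55. Naip5 and Naip6 both rose, by 0.89 and 0.66, and as near-identical copies their probes may share signal. Without KO sample 3 neither passed (adjusted p = 0.0591 and 0.10). Ccnb2 rose while its neighbour Myo1e fell by 1.07.

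The limit on similar size is a rule and not a test. Just inside it were Hscb, with a smallest difference 0.503 times the largest, and Casd1, with 0.502, and just outside were Rundc3a and Ddhd1, both with 0.499. The largest average among genes of one sign that missed the limit was that of Gata6, a zinc finger factor, which fell by 1.34, 1.70 and 2.70 in CD27, DP and CD11b cells on the log2 scale (adjusted p = 6.68e-05) and whose interaction did not pass (adjusted p = 0.449). A limit of 0.667 in place of 0.5 left 588 of the 1039 shared probe sets.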

How the data were processed

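Total RNA of 18 samples was hybridised to Affymetrix whole-transcript mouse gene arrays, 1 array each. The authors deposited log2 expression values made with RMA, and the tools named are RMA and Partek, per the submitters' processing notes; their versions are not given in the sources used here. Because RMA sets a floor from background and normalises all arrays together, differences of dim genes are understated; precision is limited by having 3 arrays in a group. Of 35399 probe sets, 21789 carry 1 gene symbol, 1621 several and 11989 none in the platform annotation, and a gene with several probe sets (999 of 19938) is given by the one with the highest mean.

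The log2 values were fitted with limma 3.58.1 in R 4.3.3 as 6 group means, with the sample (genotype and number, 6 blocks) as a random block by duplicateCorrelation (statmod 1.5.0; consensus correlation 0.206). The contrast was the mean of the 3 KO minus WT differences, moderated by eBayes, and p-values were adjusted over all probe sets by the Benjamini-Hochberg method at a threshold of 0.05. All tests were two-sided. Over sample means, the 3 arrays of a sample were averaged first. Where nothing says that samples came from separate animals, p-values over sample means measure the spread between these samples. Those of the main fit use all 18 arrays with 1 consensus correlation, so they also draw on the spread between arrays within a sample. Numbers pair arrays within a genotype, as the correlations in the text show, and not KO with WT, for which 3 of 27 same-numbered pairs had a correlation over 0.1. The method was tested on simulated data in which all samples had the same spread and none stood apart as KO sample 3 does. The members, lists and tests were chosen with earlier results of these data known.

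Genes named by rule were the Runx factors and subset markers, the 15 largest shared rises and falls with groups that do not overlap, up to 4 passing members of each list, genes near the limit on similar size, those with the smallest interaction p, those near Runx3 and neighbouring pairs. Predicted genes, histone genes, olfactory receptors, Xist and Y-linked genes were left out of the largest changes. Members of lists beyond these, and genes passing over sample means, were named after their values were seen. The fits without a block, over sample means, with a fixed block, with cyclic loess, with other filters and weights, and without each sample were run as alternatives.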

Additional observations from a re-analysis of the deposited data

Results flagged for a closer look

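Of genes named by rule that passed in the average, 9 had a KO minus WT difference that changed between subsets by the interaction test. None of them is a shared gene, which follows largely from the limit on similar size. Nuak1, Dscam, Ndrg2, Arhgap5 and Avil were named for having the smallest interaction p, so the test itself picked them. Over all 35399 probe sets 21 (0.0593%) passed the interaction, and 15 of the 1587 that passed in the average did. Nuak1, a kinase of the AMPK-related family, had an interaction adjusted p of 2.01e-06. It was at 5.35 ± 0.13 in KO CD11b cells, against 8.60 ± 0.34 in WT CD11b cells (SD, n = 3 each), and at 5.0 in KO CD27 cells, against 5.17 in WT CD27 cells. Dscam, a neuronal adhesion molecule, had an adjusted p of 0.000628 and the opposite place, at 4.90 ± 0.03 in KO CD27 cells, against 7.17 ± 0.43 in WT CD27 cells, and at 4.91 in KO CD11b cells, against 4.99 in WT CD11b cells. Arhgap5 followed Dscam in place, with differences of -1.33, -0.28 and -0.11 in CD27, DP and CD11b cells (adjusted p = 0.00634).

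The falls of Ndrg2 (adjusted p = 0.00421), Avil (0.0116), Itgb4 (0.0232) and Anxa8 (0.0318) were largest in CD11b cells, at -1.82, -2.04, -2.40 and -3.30, against -0.25, -0.44, 0.04 and -0.04 in CD27 cells. The granule protease gene Gzmb (adjusted p = 0.0232) and the protease inhibitor gene Serpinb9b (0.0318) were raised most in CD27 cells. Gzmb was at 12.37 ± 0.11 in KO CD27 cells, against 10.32 ± 0.60 in WT CD27 cells, and at 12.71 in KO CD11b cells, against 12.61 in WT CD11b cells. Serpinb9b had differences of 3.06, 1.11 and 0.65 in CD27, DP and CD11b cells.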

How the results depend on the processing

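Of 180 named genes that passed in the average none changed sign under the alternatives listed next. Without a replicate block 180 passed, as did 180 with the number as a fixed replicate block and 177 with Xist as a covariate. Further, 167 passed with an intensity trend and robust prior, 165 after cyclic loess, 131 of 160 among probe sets above the median level and 40 over sample means. With 1 sample left out, 105 passed without WT sample 2, 109 without WT sample 3 and 124 without WT sample 1. Likewise 120 passed without KO sample 1, 159 without KO sample 2 and 153 without KO sample 3. These genes were named largely for passing or for size, so a stable sign is partly built in. Counts of probe sets moved more, and cyclic loess turned the balance to 854 higher and 661 lower. The count passing in the average was 1587, and was 2862 without a replicate block, 71 over sample means, 3830 with a fixed replicate block, 908 among probe sets above the median level, 2939 with array weights, 2840 with Xist as a covariate and 45 against a minimum of 1.5-fold. In the same order the higher ones were 992, 27, 1418, then 1173 with array weights, 1129 with Xist, 26 against 1.5-fold and 401 with 1 probe set for each gene. The lower ones were 1870, 44, 2412, 488, 1766, 1711 and 19 in the order of the total count. Shared probe sets numbered 1610 without a replicate block, 54 over sample means, 2054 with a fixed replicate block, 678 above the median level, 1900 with Xist, 40 against 1.5-fold and 588 with a similar-size limit of 0.667. The interaction passed for 4 without a replicate block, 6 with a fixed one, 45 above the median level, 121 with array weights and 33 with 1 probe set for each gene. Within subsets, CD27 had 4303 with array weights, DP had 274 with a fixed replicate block, 302 with array weights and 357 with Xist, and CD11b had 1143 with Xist. Leaving out 1 sample gave 489 (without WT sample 2) to 2323 (without KO sample 2) in the average, 177 to 876 higher, 312 to 1447 lower, 338 to 1517 shared, 5 to 23 in the interaction, 101 to 498 in CD27, 31 to 255 in DP and 173 to 1245 in CD11b cells. Why the counts move was not tested. Of 35399 probe sets, 4246 were at an unadjusted p under 0.05 over sample means. In the interaction F test of the main fit on all 18 arrays, 2410 of 35399 were under that limit. Signal near the background limits the dimmest genes.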

Other observations

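The sizes of the shared differences in the single samples were as follows. Relative to the WT mean, the 244 genes that were shared and higher had median shifts of 0.66, 0.59 and 0.71 in KO samples 1, 2 and 3, against 0.05, -0.04 and -0.02 in WT samples 1, 2 and 3 on the log2 scale. The 455 that were shared and lower had -0.36, -0.29 and -0.49 in the KO samples, against -0.02, 0.0082 and 0.01 in the WT samples. The members were chosen from these values, so the separation of the genotypes is given as a description. Shared genes were also brighter than most, with a median level of 8.96, against 5.85 over all genes, and 665 of the 699 lay above the median level of all genes.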
